A study of Sus scrofa with 13 samples.

Results

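The growth hormone and insulin-like growth factor (IGF) axis of the liver was followed through 10 genes in porcine liver after ischemia–reperfusion injury. They are the growth hormone receptor GHR, the growth factors IGF1 and IGF2, the binding proteins IGFBP1, IGFBP2, IGFBP3 and IGFBP4, the insulin receptor INSR and its docking proteins IRS1 and IRS2. They were chosen by gene symbol. Of the 10, 9 have a row among the 35670 genes of the count table, and all 9 had enough reads to be tested together with the other genes, 16481 in all. IGF2 was not analysed here.

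Liver tissue came from female Yorkshire pigs, as bulk RNA. Baseline libraries (1a and 2, n = 2) had no ischemia, no reperfusion and no infused cells. The 11 livers at 6 h shared 45 min of total clamping of the hepatic inflow and outflow followed by 6 h of reperfusion. Of these, ischemic controls (1 to 3, n = 3) were clamped and received no cells, and the arterial (1 to 4, n = 4) and portal (1 to 4, n = 4) groups were infused after clamping with 3000000 human bone marrow mesenchymal stromal cells (BM-MSCs) per kg bodyweight, expanded in culture, by way of the hepatic artery or of the portal vein. The infused cells are human and the reads were mapped to the pig genome. According to the study, each liver after reperfusion came from a separate pig and tissue was sampled before clamping and again after reperfusion, so the baseline libraries may come from pigs that are also among the clamped livers. The labels do not say which pigs they are. The tests treat the libraries as independent, so p-values against baseline may be off if pigs are shared. In edgeR, differences were judged against the spread between libraries, estimated over the 4 groups together.

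In the liver, growth hormone binds its receptor on hepatocytes and signals through the kinase JAK2 and the transcription factor STAT5 to the gene of IGF1, the main circulating mediator of growth hormone. IGF1 in blood is carried by binding proteins, most of it with IGFBP3 and an acid-labile subunit, while IGFBP1 is a short-lived binding protein of hepatocytes that insulin represses. Insulin acts through its receptor, which phosphorylates IRS1 and IRS2 and through them recruits phosphoinositide 3-kinase.

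Total counts ran from 18975413 to 35949178 per library. In a principal component analysis of the 11 livers at 6 h over the 500 most variable genes, component 1 held 62.11% of the variance and set 4 libraries apart on its positive side, namely ischemic control 2, arterial infusion 1, portal infusion 1 and portal infusion 4. None of the 9 members was among those 500 genes (0 of 500). The edgeR fits and the correlations of the pairs described below were therefore also computed without these 4 libraries, a choice made after the data were seen. The permutation tests between groups, the group overlaps and the spreads were not. In those fits 692 to 1724 of the 15544 genes tested had an unadjusted p under 0.05, depending on the comparison, against which the unadjusted p-values without these libraries are to be read. The hepatocyte markers were present in every library, with 0 of 10 at zero, and their summed level was 86509 to 138975 CPM (counts scaled by the size of each library) at baseline, 46935 to 98723 in controls, 70107 to 122573 after arterial and 40708 to 105329 after portal infusion. At 6 h the 4 lowest sums were those of the 4 libraries set apart. Ischemic control 2, portal infusion 1 and portal infusion 4 also had the lowest total counts (18975413, 20563848 and 21444917), while arterial infusion 1 had 30260803. Genes with a read numbered 13581 in portal infusion 1, 14264 in portal infusion 4, 15460 in arterial infusion 1 and 16993 in ischemic control 2. In the libraries not set apart they numbered 15831 to 20282. The part of depth or of genes detected in any level was not tested. Summed neutrophil markers reached 49.6 CPM at most at baseline and spanned 59.5 to 376.8 in controls, 27.6 to 348.8 after arterial and 33.2 to 150.8 after portal infusion, with 0 of 6 at zero. The sum of 5 erythroid markers was 42.4 to 66.0 CPM at baseline, 57.6 to 880.7 in controls, 80.4 to 539.7 after arterial and 34.3 to 701.5 after portal infusion, with up to 2 of them at zero in a library. In bulk tissue, fewer cells of a type and less RNA per cell cannot be told apart.

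On the assembly Sscrofa11.1, GHR (ENSSSCG00000016866) lies on chromosome 16 from 27126300 to 27422618 and IGF1 (ENSSSCG00000000857) on chromosome 5 from 81762027 to 81909253. The genes of IGFBP3 (ENSSSCG00000058216, 50002921 to 50009425) and IGFBP1 (ENSSSCG00000016728, 50018487 to 50022799) are neighbours on chromosome 18. IGFBP2 (ENSSSCG00000035392) lies on chromosome 15 from 118822092 to 118850985, as does IRS1 (ENSSSCG00000025729) from 128245846 to 128307321. IGFBP4 (ENSSSCG00000017472) lies on chromosome 12 from 21966524 to 21980043, INSR (ENSSSCG00000013566) on chromosome 2 from 71797209 to 71939923 and IRS2 (ENSSSCG00000034763) on chromosome 11 from 76626158 to 76654639. The counts cover each gene as a whole, so no value belongs to a single exon or untranslated region. Levels below are normalized counts, the reads of a gene divided by the size factor of its library. They are not divided by gene length, and levels are therefore compared only between libraries and never between genes.

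After ischemia and reperfusion none of the 9 members passed the adjusted threshold of 0.05 in edgeR's quasi-likelihood test, either in ischemic controls against baseline or in all livers at 6 h against baseline, where the background was 0% of all genes tested in both. Without adjustment 0 of 9 members had a p under 0.05 in either comparison, against 4.37% and 4.78% of all genes. The members that lay farthest from baseline were IGFBP4, higher in every liver at 6 h, and GHR, lower in most of them. No liver without clamping was sampled at 6 h. In these comparisons clamping and reperfusion therefore cannot be told apart from the time under anesthesia and surgery. With 2 baseline libraries the smallest exact permutation p is 0.1 against the 3 controls and 0.0128 against the 11 livers at 6 h. For the members, the standard errors (SE) of the log2 fold changes ran from 0.38 to 0.76 for all livers at 6 h against baseline.

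**Figure D1:**
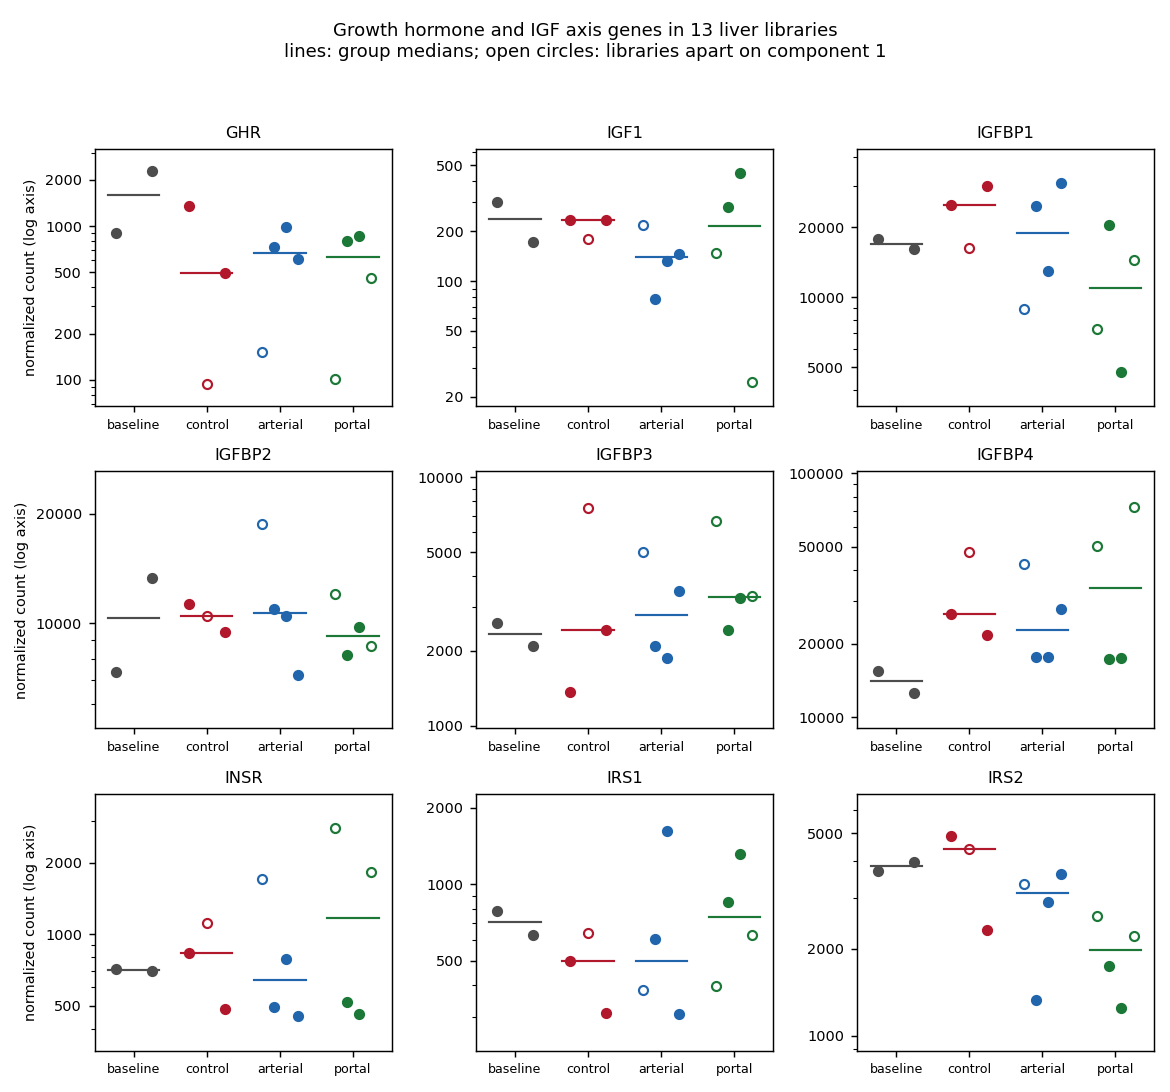
Normalized counts (log axis) of the 9 members in 13 liver libraries, 1 circle per library in the groups baseline, ischemic control, arterial and portal infusion, with group medians as lines and the 4 libraries set apart on component 1 as open circles. All 11 IGFBP4 values at 6 h lie above both baseline values, and the open circles hold the 4 lowest GHR values.

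GHR, the receptor through which growth hormone reaches hepatocytes, had normalized counts of 901 and 2265 at baseline. The 3 controls had 1346, 94.6 and 494, the arterial livers 152, 730, 988 and 611, and the portal livers 102, 800, 857 and 456. Every group at 6 h reached below the lower baseline library, while ischemic control 1 and arterial infusion 3 lay between the 2 baseline values, so the groups overlap. The mean at 6 h was 603 ± 396 (SD, n = 11) and at baseline 1583 ± 965 (SD, n = 2), a log2 fold change of -1.36 (SE 0.76, edgeR unadjusted p = 0.0916, adjusted p = 0.860) with an exact permutation p of 0.0769. Controls alone differed from baseline by -1.25 (SE 0.98, edgeR adjusted p = 0.979, exact permutation p = 0.4), and by -2.42 without ischemic control 1. The difference depended on the baseline library kept, being -0.60 without baseline 2 and -1.88 without baseline 1a.

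The spread of GHR among the livers at 6 h was wide. The standard deviation of its log2 values over the 11 livers was 1.34, larger than that of 91.4% of the 10196 tested genes with a mean normalized count of at least 100, whose median was 0.66. The 4 lowest livers were ischemic control 2, portal infusion 1, arterial infusion 1 and portal infusion 4, the same libraries that component 1 set apart and that had the lowest hepatocyte marker sums; the part of either in the GHR level was not tested. Counting error is small beside this spread, as the 81 reads of portal infusion 1 give a 95% exact Poisson interval of 81.0 to 126.7 normalized counts. Without the 4 libraries GHR at 6 h differed from baseline by -0.89 (edgeR unadjusted p = 0.0463), with an adjusted p of 0.484, and adjusted p-values ran from 0.345 to 1 over all alternatives. The genes whose log2 CPM followed GHR most closely over the 13 libraries were RHOBTB3 (r = 0.98), DDX3X (r = 0.98) and DPYD (r = 0.98), a description in which all points share library and depth.

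IGF1, the hormone made in response to growth hormone, had low counts, from 20 to 448 reads per library. Baseline livers had normalized counts of 301 and 172, and the controls 235, 179 and 233. Arterial livers had 219, 78.0, 132 and 146, and portal livers 147, 282, 449 and 24.5. All 3 control values lay between the baseline values, while the portal group held both the highest and the lowest value of the series. The lowest, portal infusion 4, rests on 20 reads with a 95% exact Poisson interval of 15.0 to 37.9 normalized counts, which does not reach the next lowest library (78.0 in arterial infusion 2). IGF1 at 6 h differed from baseline by less than its SE.

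The binding proteins are described in the order of the IGFBP numbers. IGFBP1, which insulin represses, had normalized counts of 17759 and 16162 at baseline and 24897, 16327 and 30190 in controls. Arterial livers had 8918, 24752, 12967 and 30989, and portal livers 7321, 20393, 4764 and 14517. Before infusion is considered, the controls extended from the baseline level upwards and overlapped it (control against baseline 0.49 on the log2 scale, less than the SE of 0.66). The SD was 1129 around 16961 at baseline (n = 2) and 9098 around 17822 at 6 h (n = 11, controls and infused livers together). A difference in spread was not tested.

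IGFBP2, which carries IGFs in fetal and fasting states, was the steadiest member. Baseline livers had 7325 and 13300, controls 11289, 10493 and 9475, arterial livers 18718, 10927, 10477 and 7194, and portal livers 12018, 8179, 9754 and 8675. Its log2 standard deviation over the 11 livers was 0.36, and 8.9% of the 10196 genes with a mean of at least 100 had a smaller one. In 5 of the 6 comparisons a log2 fold change under 0.2 in size was found, and in all 6 it was under its SE.

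IGFBP3, the main carrier of circulating IGF1, had normalized counts of 2579 and 2086 at baseline. Controls had 1365, 7549 and 2430, arterial livers 5013, 2100, 1867 and 3496, and portal livers 6677, 2428, 3266 and 3311. The lowest and the highest value of the series were both ischemic controls. The log2 fold change of controls against baseline was 0.65 (SE 0.64, exact permutation p = 0.9) and rested on 1 library, being -0.27 without ischemic control 2. For all livers at 6 h it was 0.58 (SE 0.56, exact permutation p = 0.513) and 0.04 without the 4 libraries set apart.

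IGFBP4, a binding protein that holds IGFs away from their receptor until it is cleaved, had 15548 and 12616 normalized counts at baseline. Controls had 26611, 47730 and 21742, arterial livers 42290, 17650, 17748 and 27772, and portal livers 50286, 17318, 17545 and 72782. Every one of the 11 livers at 6 h was above both baseline libraries. It was the only member whose groups did not overlap, 1 of 9 in controls against baseline, where 31.1% of all genes tested had groups apart, and 1 of 9 in all livers at 6 h against baseline, where 7.27% had. The mean was 32679 ± 18253 (SD, n = 11) at 6 h and 14082 ± 2073 (SD, n = 2) at baseline, a fold of 2.22 and a log2 fold change of 1.15 (SE 0.58, edgeR unadjusted p = 0.0676, adjusted p = 0.860), with an exact permutation p of 0.0641. Controls alone gave 1.16 (SE 0.66, edgeR unadjusted p = 0.0966, adjusted p = 0.979, exact permutation p = 0.2). The unadjusted p for all livers at 6 h was 0.0480 without portal infusion 2 and 0.0483 without portal infusion 3, from the same edgeR test. The 4 highest values, 42290 to 72782, were those of the libraries set apart. Without them the 6 h difference was 0.57 (edgeR unadjusted p = 0.0614) and that of the controls 0.80 (edgeR unadjusted p = 0.0342), with adjusted p-values from 0.303 to 1 for the latter over all alternatives.

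**Figure D2:**
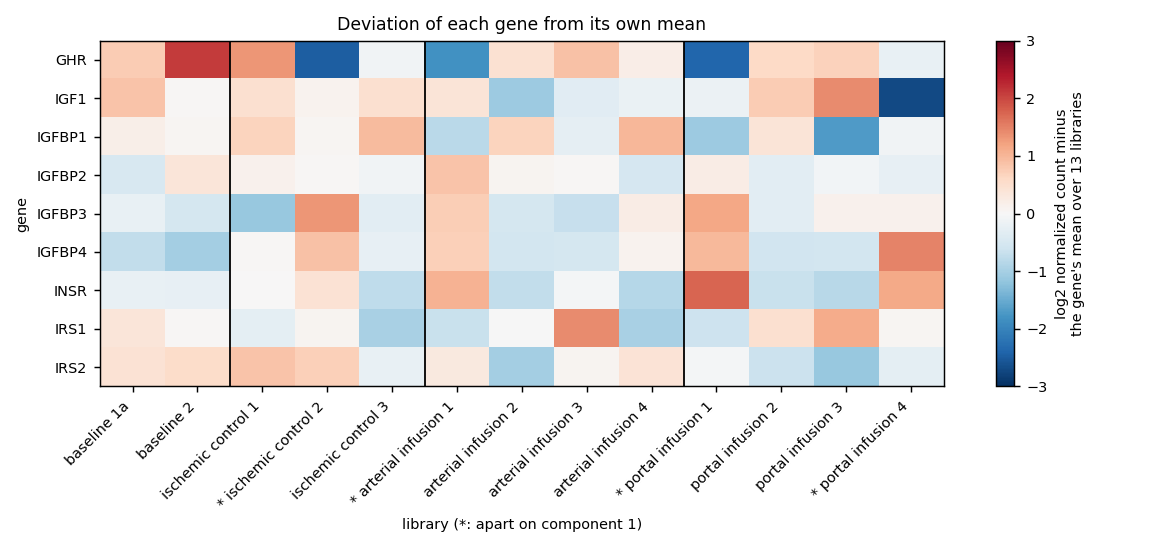
Deviation of each member (rows) from its own mean over 13 libraries (columns, in group order, vertical lines between groups), as a difference of log2 normalized counts from blue (below) to red (above). The starred libraries, set apart on component 1, are blue for GHR and red for IGFBP4 and INSR.

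INSR, the insulin receptor, had normalized counts of 714 and 702 at baseline and 833, 1119 and 486 in controls. Arterial livers had 1702, 494, 788 and 454, and portal livers 2785, 519, 463 and 1832. Baseline values lay inside the range at 6 h. The 4 highest livers were again portal infusion 1, portal infusion 4, arterial infusion 1 and ischemic control 2, at 1119 to 2785, while the 7 other livers at 6 h spanned 454 to 833. At 6 h INSR differed from baseline by less than its SE (0.45, SE 0.63), and by -0.29 without the 4 libraries.

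IRS1, a docking protein of the insulin and IGF1 receptors, had 782 and 630 at baseline, 498, 644 and 312 in controls, 383, 610, 1622 and 309 in arterial livers, and 396, 853, 1317 and 632 in portal livers. The highest of these were arterial infusion 3 and portal infusion 3. IRS2, the docking protein that carries much of the insulin signal in hepatocytes, had 3691 and 3993 at baseline and 4903, 4416 and 2310 in controls. Arterial livers had 3344, 1329, 2890 and 3626, and portal livers 2598, 1741, 1241 and 2212. The 4 portal values lay below both baseline values, as did all 4 arterial values, while 2 of the 3 controls lay above them. Infused livers against baseline were not among the 6 comparisons, and the share of all genes apart in this way was not computed. For the 3 controls, groups were apart from the 2 baseline libraries in 31.1% of all genes. For all livers at 6 h, a larger group, the share was 7.27%. Both groups differ in size from the infused groups, so neither share can be read as the background for IRS2. Neither gene differed from baseline in controls by more than its SE, and for IRS2 all livers at 6 h differed by -0.50 (SE 0.39, exact permutation p = 0.256).

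**Figure D3:**
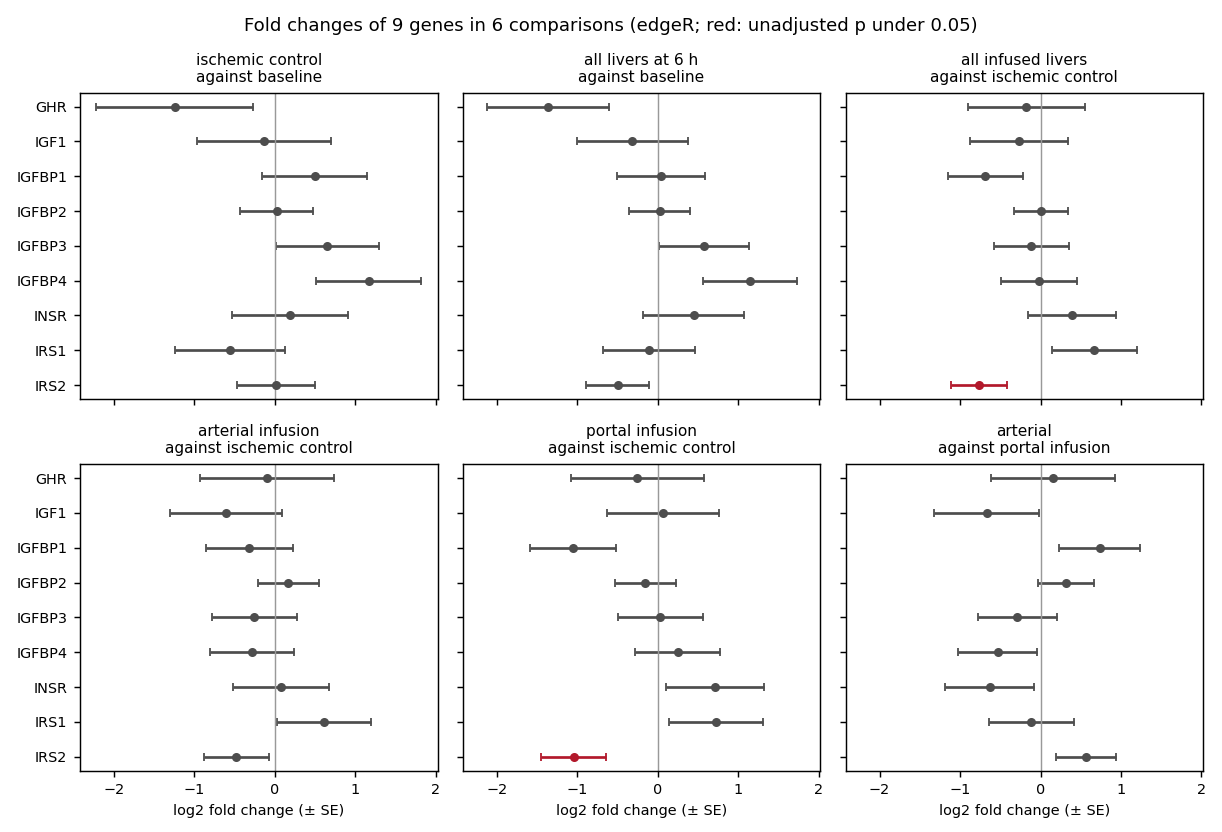
Log2 fold changes of the 9 members in 6 comparisons, as edgeR estimates (points) with SE (bars), in red where the unadjusted p was under 0.05. IRS2 is red in all infused livers and in portal infusion against ischemic control (-0.76 and -1.05), and no other member is.

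Infused livers were compared with ischemic controls, which received no cells. The study does not say that controls received the carrier fluid or the injection. The cells and the infusion procedure therefore cannot be told apart. The labels give neither the lobe nor the level of human B2M, the study's marker of infused cells. How many infused cells each sample held is therefore not known. None of the 9 members passed the adjusted threshold in edgeR, in all infused livers, in arterial or in portal livers, or between the routes, the background being 0% in each. Without adjustment IRS2 alone had a p under 0.05, 1 of 9 members in all infused livers, where 2.14% of all genes did, and 1 of 9 in portal livers, where 2.79% did. In arterial livers against controls 0 of 9 did (background 1.57%), and 0 of 9 did between arterial and portal livers (background 2.4%). No member had groups apart in any of these 4 comparisons, in which 0.564%, 3.19%, 3.72% and 1.41% of all genes had, in the order all infused, arterial, portal, and arterial against portal.

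IRS2 had a mean of 2373 ± 897 (SD, n = 8) normalized counts in infused livers and 3877 ± 1378 (SD, n = 3) in controls, a log2 fold change of -0.76 (SE 0.35, edgeR unadjusted p = 0.0436, adjusted p = 1.00, exact permutation p = 0.103). All 8 infused livers lay below 2 of the 3 controls, and 4 of them lay below ischemic control 3 as well. After portal infusion the mean was 1948 ± 587 (SD, n = 4) and the log2 fold change -1.05 (SE 0.40, edgeR unadjusted p = 0.0203, adjusted p = 1, exact permutation p = 0.0857). Arterial livers differed from controls by -0.48 (SE 0.40, exact permutation p = 0.4), and arterial from portal livers by 0.56 (SE 0.38, exact permutation p = 0.286), so that a difference between the routes was not shown. Without the 4 libraries set apart the values were -0.88 for all infused and -1.27 for portal livers (edgeR unadjusted p = 0.0463 and 0.0244). The unadjusted p for all infused livers stayed under 0.05 in 4 of the 13 fits that leave out 1 library, with differences from -1.06 to -0.51, the smallest without ischemic control 1. For portal livers it did so in 10 of 13, failing without ischemic control 1 (-0.80), ischemic control 2 (-0.97) and portal infusion 3 (-0.90). Summed markers of Kupffer cells and macrophages were also lower in the infused groups, at 1402 to 2110 CPM in controls, 715 to 1289 after arterial and 832 to 1068 after portal infusion, and 768 to 1510 at baseline. Among the controls, ischemic control 3 had the highest of these sums and the lowest IRS2 value. Of the 10 markers 9 had a negative log2 fold change in infused livers and 4 an unadjusted p under 0.05, and up to 2 were at zero, in portal infusion 1. Stellate and stromal markers summed to 701 to 897 CPM at baseline, 298 to 1636 in controls, 221 to 1263 after arterial and 159 to 666 after portal infusion, with up to 2 of 10 at zero. In portal livers 7 of these 10 had a negative log2 fold change against controls and 4 an unadjusted p under 0.05, and in all infused livers 7 and 2. Endothelial markers summed to 683 to 703 CPM at baseline, 358 to 631 in controls, 306 to 962 after arterial and 267 to 417 after portal infusion, with 0 of 9 at zero, and 8 of 9 had a negative fold change in all infused and in portal livers, 1 with an unadjusted p under 0.05 in each. The part of any of these markers in the IRS2 level was not tested.

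IGFBP1 was the other member with a difference of this size. Its mean was 11749 ± 7089 (SD, n = 4) in portal livers and 23805 ± 6996 (SD, n = 3) in controls, a log2 fold change of -1.05 (SE 0.54, edgeR unadjusted p = 0.0695, adjusted p = 1, exact permutation p = 0.143), with portal infusion 2 inside the control range. The mean in arterial livers was 19406 ± 10234 (SD, n = 4), with values on either side of the controls and a difference under its SE. Arterial against portal livers gave 0.73 (SE 0.50, exact permutation p = 0.257). Leaving out portal infusion 2, the highest portal liver, moved the portal difference to -1.51 (edgeR unadjusted p = 0.0165), and over all alternatives its adjusted p ran from 0.569 to 1. Without the 4 libraries set apart the portal difference was -1.12 (edgeR unadjusted p = 0.080). Most like IGFBP1 over the 13 libraries were KCNN3 (r = 0.86), TTC9 (r = 0.82) and CXCL8 (r = 0.82), given as a description.

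IRS1 differed in the opposite direction from IRS2, by 0.67 (SE 0.53, exact permutation p = 0.388) in all infused livers, 0.61 (SE 0.58) in arterial and 0.73 (SE 0.58) in portal livers. The arterial value rested on 1 library, being -0.18 without arterial infusion 3, and that of all infused livers was 0.27 without it. The portal value was 0.34 without portal infusion 3. Without the 4 libraries set apart the differences were 1.25 for all infused and 1.43 for portal livers (edgeR unadjusted p = 0.0482 and 0.0467, adjusted p = 0.526 and 0.530, in fits where 9.37% and 9.35% of all genes had an unadjusted p under 0.05), with the 2 remaining controls at 498 and 312. INSR differed from controls by 0.71 (SE 0.61, exact permutation p = 0.6) in portal livers, which turned to -0.42 without the libraries set apart, as did that of all infused livers, from 0.39 to -0.31. The sign for INSR after infusion thus depended on the libraries set apart.

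For IGF1 the routes differed by -0.67 (SE 0.65, exact permutation p = 0.886), arterial livers being lower. Portal infusion 1 (147) lay within the arterial range and portal infusion 4 (24.5) below it. Without the libraries set apart the arterial livers kept 78.0, 132 and 146 and the portal livers 282 and 449, a log2 difference of -1.64 (edgeR unadjusted p = 0.00158, adjusted p = 0.994), and adjusted p-values ran from 0.895 to 1 over all alternatives. In that fit 4.45% of all genes had an unadjusted p under 0.05. With the other libraries kept, leaving out portal infusion 3 alone moved the difference to -0.06. Against controls the same arterial livers differed by -0.99 (edgeR unadjusted p = 0.0287), where all 4 arterial livers gave -0.61, less than the SE of 0.70. Most like IGF1 over the 13 libraries were PKD2 (r = 0.88), URGCP (r = 0.87) and ANKRD28 (r = 0.87). GHR, the receptor upstream, IGFBP2, IGFBP3 and IGFBP4 differed between infused livers and controls by less than their SE, and single controls moved some of these values far. GHR went from -0.18 to 1.00 without ischemic control 1, and IGFBP3 from -0.11 to 0.82 without ischemic control 2.

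Members were compared pairwise across the livers at 6 h, 36 pairs in all, over 11 livers or, for the pairs with GHR, over the 8 livers outside its separate low cluster. No pair passed Benjamini-Hochberg adjustment for r or for rho (0 of 36). The closest was IGFBP4 with INSR (r = 0.85, permutation p = 0.00141, adjusted 0.0508; rho = 0.70, permutation p = 0.0202, adjusted 0.55; n = 11), with r = 0.76 without portal infusion 1 and 4. Among the 7 livers not set apart on component 1, r was 0.14 (exact permutation p = 0.836) and rho -0.11 (exact permutation p = 0.840), so the relation rests on the 4 libraries that are set apart. IGFBP3 with IGFBP4 gave r = 0.65 (permutation p = 0.0314) and rho = 0.65 (permutation p = 0.0345) over 11 livers, r = 0.71 without the 2 outermost livers, and r = -0.06 (exact permutation p = 0.889) over those 7. GHR and IGFBP3 gave r = -0.73 (permutation p = 0.0402) and rho = -0.74 (permutation p = 0.0458) over 8 livers, and r = -0.32 without the 2 outermost. Over the 7 livers not set apart r was -0.67 (exact permutation p = 0.0943) and rho -0.68 (exact permutation p = 0.1095). Adjusted p-values were 0.483 for r in either pair.

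**Figure D4:**
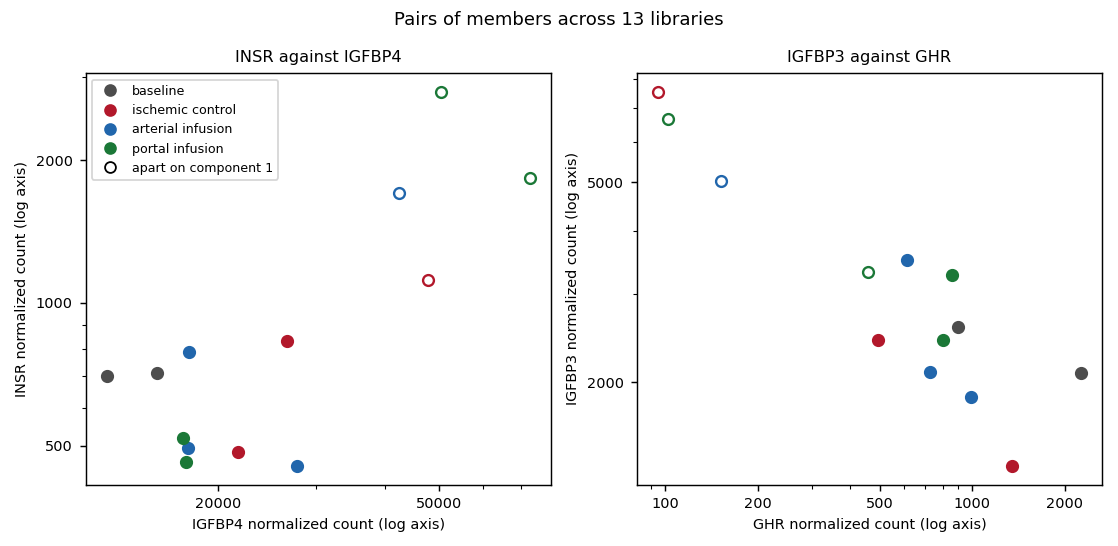
INSR against IGFBP4 (left) and IGFBP3 against GHR (right) in 13 libraries, as normalized counts on log axes, colored by group, with libraries set apart on component 1 as open circles. The 4 open circles hold the highest values of both IGFBP4 and INSR, and among the other 7 livers at 6 h r was 0.14.

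The genes around the members were followed in 4 lists. Of growth hormone receptor signalling and feedback 11 of 11 genes were tested, of IGF receptors, carriers, proteases and other binding proteins 14 of 14, of insulin receptor signalling 26 of 30, and of insulin- and fasting-responsive liver genes 16 of 17. None of them passed the adjusted threshold in edgeR in any of the 6 comparisons. Their median log2 fold changes for all livers at 6 h against baseline were 0.03, -0.02, -0.08 and 0.02, beside -0.01 for all genes, and for infused livers against controls -0.03, -0.35, -0.11 and -0.17, beside -0.02.

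In the livers at 6 h against baseline 4.78% of all genes had an unadjusted p under 0.05, beside which the counts of listed genes are to be read. Of the growth hormone signalling genes 1 of 11 had one, with a positive fold change. This was CISH, a STAT5 target that feeds back on the receptor, with 646 and 437 normalized counts at baseline and from 543 to 1823 at 6 h, with a median of 1012, and only arterial infusion 1 within the baseline range. Its log2 fold change was 0.96 (SE 0.42, edgeR unadjusted p = 0.0393, adjusted p = 0.860). The unadjusted p was not under 0.05 in 5 of 13 fits that leave out 1 library, where the difference ran from 0.66 (without baseline 2) to 1.28. In the insulin signalling list 2 of 26 had one, each with a negative fold change, and 1 of them is described. PDPK1, the kinase that activates AKT, had 898 and 812 at baseline and 85.6 to 657 at 6 h (median 364). The groups did not overlap, as was the case for 7.27% of all genes. The log2 fold change of PDPK1 was -1.37 (SE 0.63, edgeR unadjusted p = 0.0445, adjusted p = 0.860), and its 4 lowest livers were those set apart on component 1. Its unadjusted p was not under 0.05 in 6 of 13 such fits, and its difference was -0.91 without the libraries set apart. In the carrier list and the insulin- and fasting-responsive list 0 of 14 and 0 of 16 had an unadjusted p under 0.05. PAPPA2, a protease of IGF binding proteins, stood at the upper end of the listed fold changes but had at most 88.1 normalized counts and a difference under its SE.

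In infused livers against controls 2.14% of all genes had an unadjusted p under 0.05, beside which the counts of listed genes are to be read. Of the growth hormone signalling genes 1 of 11 had one, with a negative fold change. SOCS2, the suppressor that limits growth hormone signalling, had 640, 1567 and 1117 normalized counts in controls, 325, 611, 389 and 675 in arterial livers and 170, 596, 265 and 742 in portal livers. Baseline livers had 486 and 726, which lies inside the range of the infused livers. Of the 8 infused livers 6 lay below all controls (-1.24, SE 0.42, edgeR unadjusted p = 0.0101, adjusted p = 1.00). The difference was -0.84 without the 4 libraries set apart (edgeR unadjusted p = 0.0408), and without ischemic control 2 it was -0.95 and its unadjusted p was not under 0.05. Of the carrier list 1 of 14 had such a p. HTRA1, a protease that cleaves IGF binding proteins, had 516, 482 and 765 in controls, 367, 252, 280 and 588 in arterial livers and 521, 247, 193 and 218 in portal livers (-0.87, SE 0.37, edgeR unadjusted p = 0.0351, adjusted p = 1.00). Baseline livers had 222 and 407, with infused livers on either side of this range and all controls above it. The unadjusted p of HTRA1 was not under 0.05 in 7 of 13 fits that leave out 1 library, with differences from -1.05 to -0.66. PAPPA, a protease of IGFBP4, had the most negative listed fold change (-2.27, SE 1.58, edgeR adjusted p = 1.00) but was at 0 in 4 infused livers and at most 37.2 in any liver, and the value was -0.03 without ischemic control 1.

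Of the insulin- and fasting-responsive genes 1 of 16 had an unadjusted p under 0.05 in infused livers, with a negative fold change, and 0 of 26 did in the insulin signalling list, beside 2.14% of all genes. TAT, the tyrosine aminotransferase of hepatocytes that glucocorticoids and fasting induce, had 78230, 43350 and 31452 normalized counts in controls, 14509, 24419, 20113 and 25341 in arterial livers and 6741, 14981, 13538 and 37065 in portal livers. Baseline livers had 21989 and 37941. Of the 8 infused livers 7 lay below all controls (-1.42, SE 0.45, edgeR unadjusted p = 0.00639, adjusted p = 1.00). It was -1.60 without the 4 libraries set apart (edgeR unadjusted p = 0.000722) and -0.92 without ischemic control 1, when its unadjusted p was not under 0.05, and adjusted p-values ran from 0.311 to 1 over all alternatives. The Kupffer, stromal and endothelial marker sums given beside IRS2 belong to the same comparison as SOCS2, HTRA1 and TAT, and their part in these levels was not tested.

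**Figure D5:**
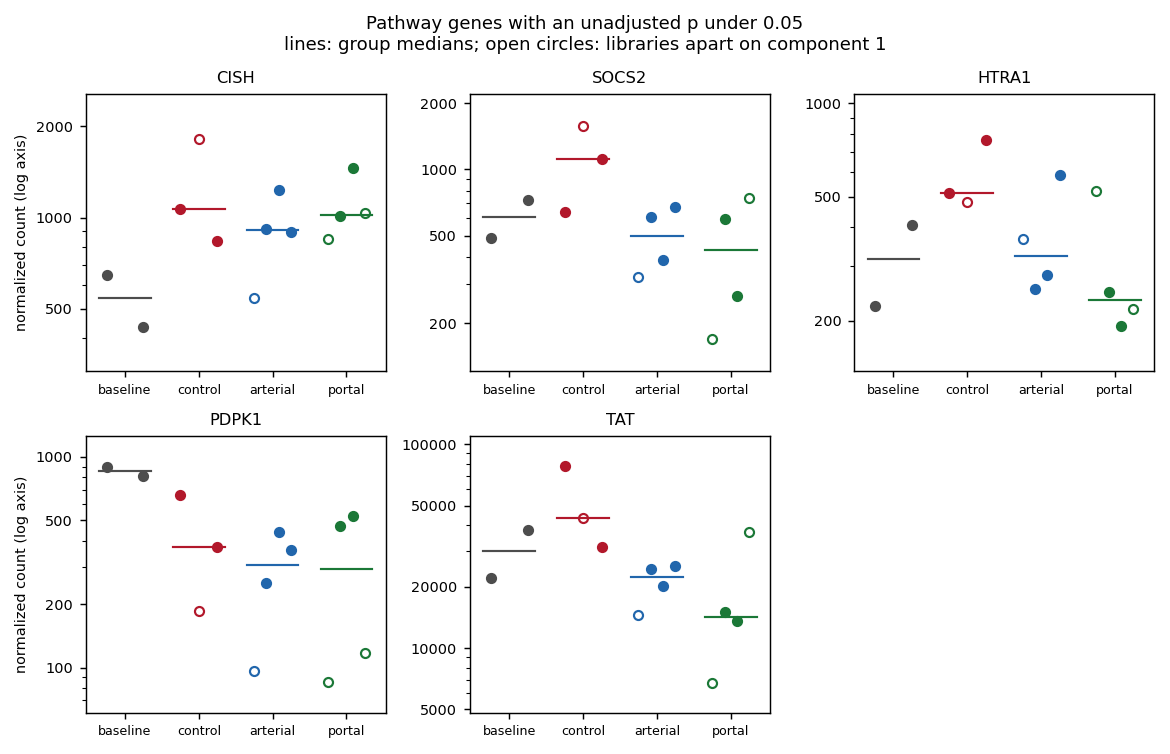
Normalized counts (log axis) of 5 pathway genes with an unadjusted p under 0.05, 1 circle per library by group, with group medians as lines and the libraries set apart on component 1 as open circles. PDPK1 lies below both baseline values in all 11 livers at 6 h, and 7 of 8 infused livers lie below all controls for TAT.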

How the data were processed

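RNA was measured in 13 pig liver libraries made from mRNA with a protocol that does not keep strand, so reads of a gene and of an antisense partner cannot be told apart. The authors aligned paired reads with HISAT2 (assembly Sscrofa11.1), assigned them to Ensembl genes by FeatureCounts and deposited the raw counts. Tool versions and the strand and multiple-mapping settings are not given in the sources used here. Groups and replicate numbers were taken from the labels, and 0 columns were left without a sample. No library was a copy of another, as the smallest chi-square per gene between any 2 was 83.6.

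The 10 genes and the lists around them were chosen with earlier results of these data known. Tests used edgeR 4.0.16 in R 4.3.3 (filterByExpr, TMM, quasi-likelihood test, Benjamini-Hochberg adjustment over all 16481 genes tested, threshold 0.05), with 4 groups in 1 fit and 6 comparisons; all livers at 6 h are the plain mean of the 3 groups. The common biological coefficient of variation was 0.730. The SE is the fold change divided by the root of the test's F. Normalized counts used DESeq2 1.42.0 size factors. Single members were compared by two-sided exact permutation tests on log2(normalized count + 1), 54 in all, and pairs by permutation tests with 100000 resamples. Scripts were tested on simulated data. Intervals cover counting error only, since reads are not molecules. Coordinates are RefSeq's for Sscrofa11.1, matched by symbol.

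Named were all members, of each pathway list at most 5 genes with an unadjusted p under 0.05 in all livers at 6 h against baseline or in all infused livers against controls, the listed genes at the ends of the fold changes, and for GHR, IGF1 and IGFBP1 the 3 genes with the closest profile. Of the listed genes the rule names, 2 are not reported here. Alternatives were DESeq2, other normalizations and filters, fits to the compared groups, a replicate block and leaving out libraries. Marker lists covered hepatocytes, neutrophils, erythroid cells, Kupffer cells and macrophages, stellate and stromal cells, endothelium and cholangiocytes (summed level 20.8 to 258.5 CPM over all libraries).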

Additional observations from a re-analysis of the deposited data

How the results depend on the processing

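No alternative took a member past the adjusted threshold. Counts of all genes past it, 0 in each comparison in the edgeR fit, became with DESeq2 on all libraries 5 for controls against baseline, 14 for all livers at 6 h against baseline, 1 for all infused livers and 4 for portal livers against controls, and 1 between the routes. DESeq2 on the compared groups gave 166 for controls against baseline and 3 for portal livers. Without a filter on low counts they were 30, 28, 19, 11, 14 and 5 in the order controls against baseline, 6 h against baseline, infused, arterial and portal against controls, and arterial against portal. Without the 4 libraries set apart they were 1 for infused and 1 for arterial livers. Members with an unadjusted p under 0.05 numbered 1 for controls against baseline with DESeq2 on the compared groups, without a filter and without the libraries set apart, and 1 for 6 h against baseline with DESeq2 on all libraries, without a filter and without those libraries. For controls against baseline 8.64% of all genes had such a p with DESeq2 on the compared groups and 4.95% without a filter. For 6 h against baseline the share was 5.68% with DESeq2 on all libraries and 7.78% without a filter. For infused livers the 1 member (IRS2) became 0 with either DESeq2 fit, with edgeR on the compared groups, with RLE or upper quartile normalization, without a filter and with at least 10 counts in every library. The share of all genes in those fits was 1.67% to 5.4%. The count for infused livers became 2 without the libraries set apart, which gave 1 for arterial livers, 2 for portal livers and 1 between routes. In the fits without those libraries 1724 of 15544 genes had an unadjusted p under 0.05 for controls against baseline, 10.2% for all livers at 6 h against baseline, 9.37% for infused, 6.38% for arterial and 9.35% for portal livers against controls, and 4.45% between routes. With 1 library left out the share was 0.589% to 6.4%, and with a replicate block 1.15% to 7.36%. Leaving out single libraries gave 0 to 1 for controls and for 6 h against baseline, 0 to 1 for infused livers, 0 to 2 for portal livers and 0 to 1 between routes.

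The labels do not say that a shared replicate number marks a shared pig, day or batch. Correlations of same-numbered libraries ran from -0.42 to 0.43, and the numbers were not taken to pair the livers. With a replicate block the unadjusted count of members was 1 for controls against baseline (IGFBP4), 2 for infused livers and 2 for portal livers (IRS2 and IGFBP1), and 0 genes passed the adjusted threshold.

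Of the 54 member comparisons, the direction of 26 turned when some single library was left out and that of 17 without the libraries set apart; of the 21 at least as large as their SE, 2 and 4 did. Among these 21, directions turned for IGFBP3 in controls against baseline without the libraries set apart (-0.29), and leaving out single libraries gave -0.27 (without ischemic control 2) to 1.04. For IRS1 in arterial livers against controls single libraries gave -0.18 (without arterial infusion 3) to 0.87. Without the libraries set apart they also turned for INSR in portal livers against controls (-0.42) and between the routes (0.23), and for IGFBP4 between the routes (0.25). Among the smaller differences, IGFBP4 in portal livers against controls turned from 0.25 to -0.47 without the libraries set apart. Fits to the compared groups could not be made separately for 6 h against baseline, which uses all libraries. With a common coefficient of variation of 0.730 and 2 to 4 libraries per group, the SE of 0.34 to 0.98 on the log2 scale bounds the precision of these comparisons. Causes were not tested.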
